A study of Homo sapiens with 21 samples.

Results

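The genes described here are the 10 that encode the subunits of the hypoxia-inducible factors (HIFs) and the proteins that sense oxygen for them. They comprise the HIF-alpha subunits HIF1A, EPAS1 (also called HIF-2alpha) and HIF3A, the partner subunits ARNT and ARNT2, the von Hippel-Lindau protein VHL, the prolyl hydroxylases EGLN1, EGLN2 and EGLN3, and the asparaginyl hydroxylase HIF1AN. They were chosen by name, as the rows of the count table whose Ensembl identifiers belong to these symbols, and all 10 were found among the 42339 genes listed.

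A HIF is a pair made of an alpha subunit and ARNT or ARNT2. In well-oxygenated cells the EGLN enzymes hydroxylate the alpha subunit, VHL then marks it for destruction by a ubiquitin ligase, and HIF1AN blocks the binding of coactivators to it. When oxygen is short these reactions slow, the alpha subunit accumulates, and the pair switches on genes of glycolysis, angiogenesis and survival through hypoxia response elements, with EGLN1 and EGLN3 themselves among the known targets. Since this control acts largely on protein, the mRNA counts below do not measure HIF protein or activity.

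BT-549 is an established triple-negative breast cancer (TNBC) cell line with wild-type BRCA1, and every sample came from it. Bulk RNA-seq counts were available for 21 libraries in 7 groups of 3. 2D cells grew as monolayers in serum-containing RPMI medium, and 3D cells, labelled as controls, were mammospheres at serial passage 6, kept in MammoCult medium on plates to which cells do not attach. A further group of 3D cells at passage 6 received 0.75 µmol/L GO-203, a peptide inhibitor of the MUC1-C oncoprotein. Mammospheres that carry a doxycycline (DOX)-inducible shRNA against MUC1 (tet-MUC1shRNA, passage 6) or against MYC (tet-MYCshRNA, passage 8) received 0.1% DMSO as vehicle or 500 ng/ml DOX. Each tet line held a single shRNA sequence, and DOX-treated cells with a control shRNA were not analysed here, so the effects of DOX and of the silencing cannot be told apart. Likewise, growth in 3D, passage and the change of medium cannot be told apart in the 3D vs. 2D comparison. The methods state triplicate cultures but not whether these were set up from separate passages or on separate days, so the p-values measure only the spread between these samples, which may be technical. In bulk RNA, fewer cells of a type and less RNA per cell cannot be told apart.

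Library totals ran from 38026597 to 99751717 counts, and in each of the 21 replicate pairs the counts differed beyond what sampling alone gives. Mesenchymal markers of this line (VIM, ZEB1, FN1, CDH2 and CD44) summed to between 3750 and 17000 counts per 1000000 (CPM) in every library, while the hormone receptor and epithelial genes ESR1, PGR, EPCAM and CDH1 together stayed between 0.0301 and 1.55 CPM. Most of the mesenchymal sum came from FN1 in the mammosphere groups and from CD44 and VIM in 2D cells, and single markers went different ways. From 2D to 3D cells FN1 rose by 3.90 on the log2 scale while CDH2 fell by 3.11 and CD44 by 0.81, and on MUC1 silencing CDH2 rose by 2.67 while ZEB1 fell by 1.42. Of 5 markers of blood and endothelial cells, CD3E, VWF and CDH5 had at most 10 counts in any library. The other two, PTPRC and PECAM1, made up most of their summed level, which was 1.27 to 1.54 CPM in 2D cells and 2.84 to 10.4 CPM over all mammosphere groups. MUC1 fell in DOX-treated tet-MUC1shRNA mammospheres by 2.06 on the log2 scale and MYC fell in DOX-treated tet-MYCshRNA mammospheres by 0.62. Silencing MYC also went with a MUC1 increase of 1.25 on the log2 scale, and silencing MUC1 with a MYC increase of 0.25. The share of counts from mitochondrial DNA also moved with the groups. It was 5.22% to 5.24% in 2D cells, 2.31% to 2.72% in 3D cells and 3.34% to 4.39% with GO-203. It went from between 2.61% and 2.78% to between 6.36% and 6.72% with DOX in the tet-MUC1shRNA line, and from between 3.37% and 4.08% to between 3.96% and 5.07% in the tet-MYCshRNA line. Scaling without the mitochondrial genes left the number of the 10 genes called in each comparison as it was.

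Promoter sequences from RefSeq (GRCh38.p14) were matched by symbol to 8 of the 10 genes, all but ARNT2 and VHL. The 250 bases before a RefSeq start site are printed for EPAS1, HIF3A, EGLN1 and EGLN3, the genes whose mRNA differed by more than 1.5-fold and passed the test in at least 2 of the 4 comparisons below, so that they can be compared for the core letters of a hypoxia response element. Capitals mark that core, ACGTG or GCGTG, which reads CACGT or CACGC on the other strand. The sequences run 5′ to 3′ on the gene's own strand. The windows are chr2:46297157-46297406 on the plus strand, chr19:46296792-46297041 on the plus strand (the first of 3 start sites), chr1:231422288-231422537 on the minus strand and chr14:33951075-33951324 on the minus strand.
EPAS1 promoter: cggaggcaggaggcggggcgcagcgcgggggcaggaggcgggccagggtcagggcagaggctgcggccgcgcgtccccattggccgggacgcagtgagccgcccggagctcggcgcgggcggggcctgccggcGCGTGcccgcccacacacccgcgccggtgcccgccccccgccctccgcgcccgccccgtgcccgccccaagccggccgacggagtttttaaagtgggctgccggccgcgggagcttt
HIF3A promoter: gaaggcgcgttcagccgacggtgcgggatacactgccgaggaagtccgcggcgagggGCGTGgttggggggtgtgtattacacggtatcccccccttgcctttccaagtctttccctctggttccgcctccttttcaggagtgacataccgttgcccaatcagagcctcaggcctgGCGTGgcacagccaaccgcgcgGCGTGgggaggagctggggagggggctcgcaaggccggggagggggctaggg
EGLN1 promoter: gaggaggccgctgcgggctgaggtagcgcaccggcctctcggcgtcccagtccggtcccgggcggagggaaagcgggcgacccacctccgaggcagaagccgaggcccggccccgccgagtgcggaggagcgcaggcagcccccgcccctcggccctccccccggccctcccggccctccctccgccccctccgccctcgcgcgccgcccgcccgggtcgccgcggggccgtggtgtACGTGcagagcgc
EGLN3 promoter: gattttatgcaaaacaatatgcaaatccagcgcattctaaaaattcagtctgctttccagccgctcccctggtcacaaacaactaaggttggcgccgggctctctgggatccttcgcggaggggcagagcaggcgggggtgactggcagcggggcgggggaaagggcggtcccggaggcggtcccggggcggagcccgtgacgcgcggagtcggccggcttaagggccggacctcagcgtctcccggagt

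The EPAS1 window held 1 core, 117 bases before the start site, and the EGLN1 window held 1, at 13 bases before it. The HIF3A window held 3, at 193, 74 and 52 bases before the start. The EGLN3 window, together with those of ARNT and HIF1AN, held none, which says only that these letters are not in the window. Among the other windows, HIF1A had 1 core at its first start site, and EGLN2 had 2 at its first that overlap within an E-box (CACGTG), a motif that holds both ACGTG and CACGT. The further start sites of HIF1A, HIF3A and EGLN2 had none. Of 35116 windows of the same length over all genes, 43.2% held at least 1 core, 19.4% held 2 or more and 6.34% held an E-box. A match of these letters is therefore common, and it is a description of the sequence, not of a bound site.

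Levels of the 10 genes differed widely within a group. On the scale of CPM per kilobase of exon, HIF1A was the highest of the 10 in 2D cells, at 113.8 ± 2.7 (SD, n = 3). ARNT followed with 19.97 ± 0.51 and VHL with 12.1 ± 0.35. HIF1AN, EPAS1 and EGLN1 lay between 3.38 and 4.26 CPM per kilobase, and EGLN2 at 0.624 ± 0.0599. ARNT2, EGLN3 and HIF3A were at or below 0.041 CPM per kilobase there, with at most 18 counts in any 2D library. In 3D cells the order by CPM per kilobase began with HIF1A at 63.4 ± 1.63 and EPAS1 at 33.7 ± 0.48, so that EPAS1 moved above ARNT, which had 19.7 ± 0.56.

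**Figure D1:**
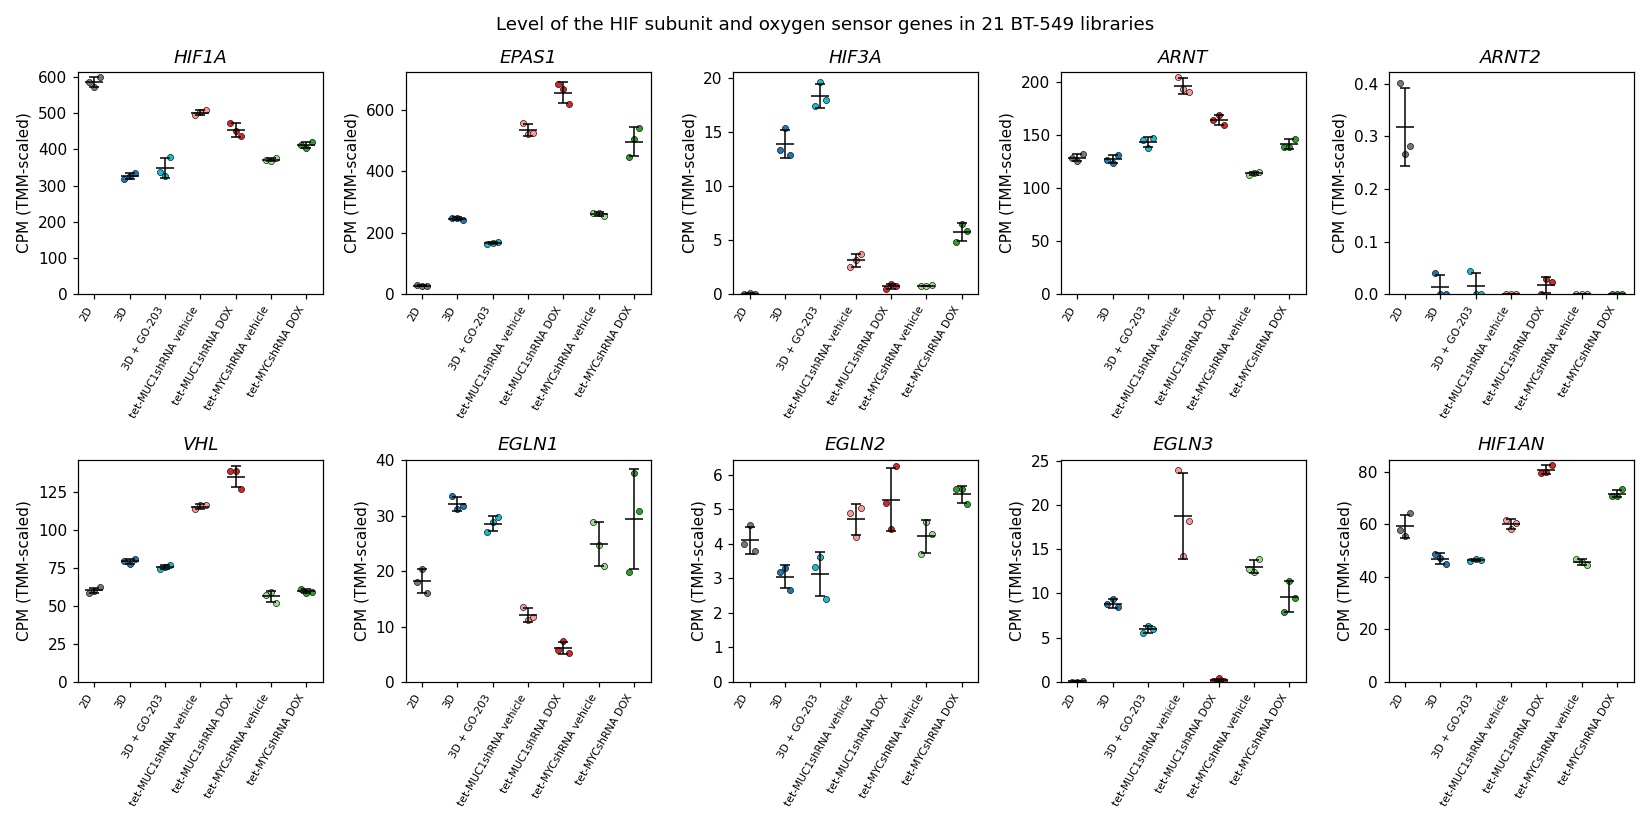
Level of each of the 10 genes in CPM (scaled by TMM factors over the 21 libraries) in the 7 groups, with 1 point per library and bars for the mean and SD (n = 3); each panel has its own vertical axis, starting at 0. EPAS1, HIF3A and EGLN3 sit near the bottom of their panels in 2D cells, EGLN3 returns there in DOX-treated tet-MUC1shRNA mammospheres, and ARNT2 is above 0.05 CPM in the 2D libraries alone.

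The first comparison asked how mammosphere cells differ from the same line grown as a monolayer. EPAS1, HIF3A, EGLN1 and EGLN3 mRNA was higher in 3D than in 2D cells, HIF1A and ARNT2 mRNA was lower, and smaller differences were found for VHL, EGLN2 and HIF1AN. All 10 genes could be tested, and at an adjusted p below 0.1 in edgeR's quasi-likelihood test 5 rose and 4 fell, against 32.0% and 31.7% of the 19190 genes tested (63.7% in either direction). With a fold change above 1.5 also required, 4 were higher and 2 lower, against 17.9% and 21.1% of all genes tested (39.0% in either direction), so the number of these genes called has to be read against a comparison in which much of the transcriptome moved. Their median log2 change was 0.24, and that of all genes tested was -0.01.

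Among the alpha subunits, HIF1A was counted at 587, 572 and 600 CPM in the 3 2D libraries and at 318, 327 and 334 CPM in the 3 3D libraries. All 3D libraries lay below all 2D libraries, with a log2 change of -0.79 (standard error, SE, 0.05, adjusted p = 1.19e-09 by edgeR's quasi-likelihood test). EPAS1 went the other way, from 29.3, 27.2 and 27.9 CPM in 2D cells to 247, 249 and 242 CPM in 3D cells. Its log2 change was 3.18 (SE 0.06, adjusted p = 2.5e-16 by the same test), a 9.09-fold difference, and the spread within either group was small beside it. PECAM1, a surface protein of endothelial cells, where EPAS1 is also expressed, rose as well, from at most 0.0353 CPM to between 5.83 and 7.08 CPM, while the defining endothelial genes CDH5 and VWF had 0 to 2 counts in the 3D libraries. PTPRC, the leukocyte marker and the other gene of that list that could be tested, fell by 4.30 on the log2 scale, from a mean of 1.28 to 0.0621 CPM. HIF3A, whose splice forms include inhibitors of the other alpha subunits, had 0, 6 and 0 counts in the 2D libraries and 660, 800 and 856 counts in the 3D libraries. Scaled by library size and TMM factors, 3D cells had 363 times the HIF3A level of 2D cells, with a 95% counting interval of 167 to 991 that covers counting error only. The fitted log2 fold change of 8.49 (adjusted p = 2.24e-12, edgeR) rests on those 6 reads, and became 12.6 without 2D replicate 2, the library that holds them. HIF3A passed the filter on low counts through its 3D libraries alone, so the p-value adds little to these counts.

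Of the partner subunits, ARNT, the common partner of all alpha subunits, was at 128, 126 and 132 CPM in 2D cells and 127, 124 and 131 CPM in 3D cells. The groups overlapped, with a log2 change of 0.04 (SE 0.06, adjusted p = 0.577 by edgeR) that turned to -0.02 when libraries were scaled by size alone. ARNT2, a related partner best known from neurons, had 18, 15 and 16 counts in the 2D libraries and 2, 0 and 0 in the 3D libraries. The ratio of the scaled counts was 26.0 in favour of 2D cells (95% counting interval 6.83 to 221), and the adjusted p from edgeR was 0.000284. ARNT2 passed the filter on low counts through its 2D libraries alone, so the p-value adds little to these counts. The fitted log2 change was -4.41, or -7.10 without 3D replicate 1, which holds the only 2 reads of its group. The ARNT2 level was low in both groups, at most 0.402 CPM.

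VHL, the substrate receptor of the ligase, rose from between 58.7 and 62.2 CPM in 2D cells to between 77.3 and 81.1 CPM in 3D cells, a log2 change of 0.45 (SE 0.06, adjusted p = 3.9e-06, edgeR). Of the prolyl hydroxylases, EGLN1 (PHD2), the main oxygen sensor for HIF1A, was at 18.0, 20.4 and 16.1 CPM in 2D cells and 33.6, 31.2 and 31.8 CPM in 3D cells. Its log2 change was 0.88 (SE 0.09, adjusted p = 2.15e-07, edgeR), and the groups did not overlap, as in 64.1% of all genes tested. EGLN3 (PHD3), a strongly hypoxia-inducible member, had 0, 1 and 8 counts in the 2D libraries and 432, 486 and 560 counts in the 3D libraries. Scaled by library size and TMM factors, the 3D level was 154.5 times that of 2D cells (95% counting interval 81.2 to 339). The fitted log2 change was 7.28 (adjusted p = 2.49e-11, edgeR), or 9.55 without 2D replicate 3. EGLN3 passed the filter on low counts through its 3D libraries alone, so the p-value adds little to these counts. EGLN2 (PHD1) had 3.99, 4.54 and 3.78 CPM in 2D cells and 3.19, 3.29 and 2.67 CPM in 3D cells. That difference of -0.38 on the log2 scale passed with an adjusted p of 0.0566 in edgeR's test, and did not pass with DESeq2 (0.124), without the filter on low counts (0.111), without 2D replicate 2 (-0.29, adjusted p = 0.216) or without 3D replicate 3 (-0.28, adjusted p = 0.19). HIF1AN fell by 0.28 on the log2 scale (SE 0.07, adjusted p = 0.00183, edgeR), from 57.7, 55.7 and 64.3 CPM to 48.7, 47.3 and 44.7 CPM.

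The result for EGLN1 depended on which mammospheres were set against 2D cells. With vehicle-treated mammospheres of the tet-MUC1shRNA line compared with 2D cells, the EGLN1 log2 change was -0.55 (adjusted p = 0.000229, edgeR), the opposite direction, and with vehicle-treated tet-MYCshRNA mammospheres it was 0.47. EPAS1 was higher than in 2D cells with either line, at 4.29 and 3.24, and so were HIF3A, at 6.32 and 4.33, and EGLN3, at 8.34 and 7.82 on the same log2 scale. HIF1A was lower with either, at -0.18 and -0.63. ARNT was higher than in 2D cells in the first line, at 0.65 (adjusted p = 9.44e-09, edgeR), and lower in the other, at -0.15 (adjusted p = 0.0187). VHL, at 0.98 and -0.07, and HIF1AN, at 0.06 and -0.35, also depended on the mammospheres used. EGLN2, lower in 3D than in 2D cells, was at 0.24 (adjusted p = 0.156) and 0.06 (adjusted p = 0.726) with these lines, above 0 in both. The vehicle-treated lines carry an shRNA construct and received 0.1% DMSO, and the tet-MYCshRNA line was at passage 8 and not 6. These differences from 3D cells cannot be told apart.

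**Figure D2:**
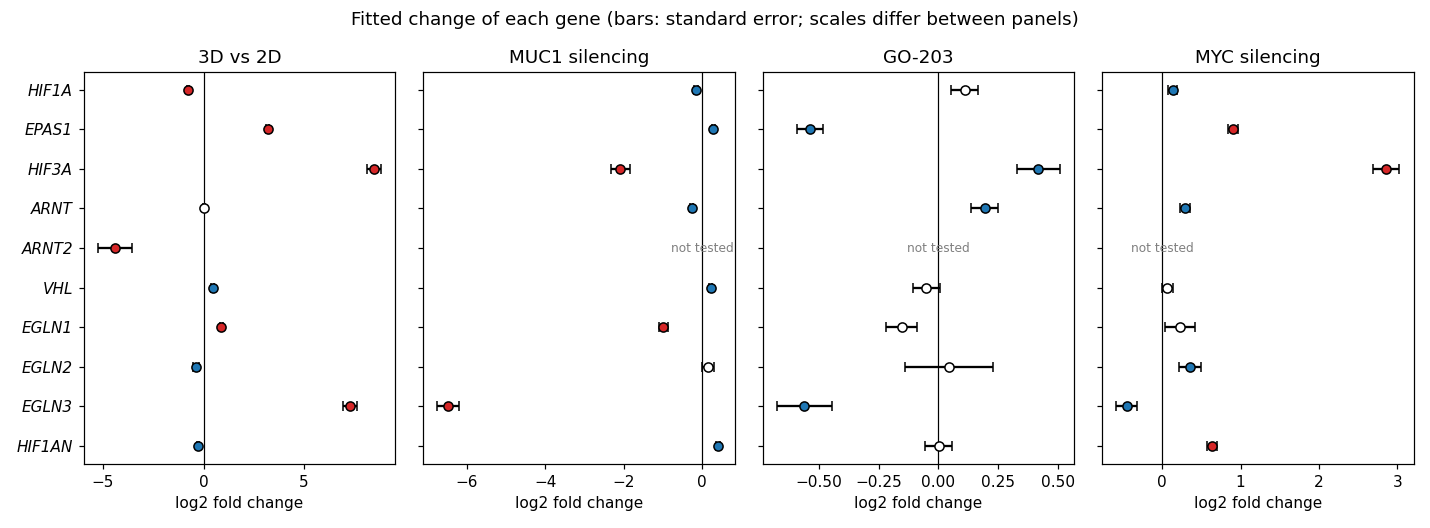
Fitted log2 fold change of each gene in the 4 comparisons, with bars for the standard error; filled red points passed an adjusted p of 0.1 with a fold change above 1.5, blue points passed the adjusted p alone, open points did not pass, and ARNT2 was tested in 3D vs. 2D cells alone. The horizontal scales differ: HIF3A and EGLN3 lie at 8.49 and 7.28 in 3D vs. 2D cells, and no gene lies beyond -0.56 or 0.42 with GO-203.

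Genes that act on or with HIF were described by lists, chosen with earlier results of these data known, in the same comparison. Over all 19190 genes tested, 32.0% rose and 31.7% fell at the same adjusted p, so list counts near these shares say little about a list. Of 10 well-known HIF targets, all 10 rose, with a median log2 fold change of 2.46, the largest being NDRG1 at 6.42, CA9, a pH-regulating carbonic anhydrase, at 5.70, ADM, a vasoactive peptide, at 4.65 and PFKFB4, a regulator of glycolysis, at 4.07. Of 4 other subunits of the VHL ligase, ELOB rose by 0.77 and RBX1 fell by 0.26. Of 3 genes in the coactivator list, CITED2, a competitor for coactivator binding that is induced by HIF, rose by 1.13. The acetyltransferases EP300 and CREBBP, which are coactivators, fell by 0.52 and 0.36. Among 10 genes whose products affect the stability of alpha subunits, 5 rose and 2 fell. They included the LIM proteins AJUBA and WTIP, which fell by 2.21 and 2.10, the ubiquitin ligase SIAH2, which rose by 1.17, and LIMD1, which rose by 0.93. Of 8 other bHLH-PAS factors tested, 2 rose and 5 fell, with NPAS2 at 4.30, AHRR at -2.22, SIM1 at -1.20 and BMAL2 at -0.78. The NPAS2 change rests on 0 to 8 counts in the 2D libraries, so its size is uncertain. Of 4 other oxygen-sensing dioxygenases, KDM6A and ADO rose by 0.74 and 0.48 and P4HTM fell by 0.33. With libraries scaled by size alone, the genes that passed were 1 higher and 3 lower for the ligase, 4 and 2 for the stability genes, and 2 and 2 for the dioxygenases. One of the 3 antisense transcripts listed could be tested, HIF1A-AS3, which fell by 0.79 and shares 5.8% of the HIF1A exon bases on the opposite strand.

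In the MUC1 silencing comparison, which asked how mammospheres change when MUC1-C is lost, EGLN3 and EGLN1 mRNA was lower in DOX-treated than in vehicle-treated tet-MUC1shRNA mammospheres and HIF3A mRNA was lower as well. EPAS1, VHL and HIF1AN were slightly higher, and HIF1A and ARNT slightly lower. Of 9 genes tested, 3 rose and 5 fell at an adjusted p below 0.1, against 30.7% and 31.6% of 19220 genes (62.2% in either direction). With a fold change above 1.5, edgeR and DESeq2 both called 0 higher and 3 lower, against 17.6% and 14.6% of all genes (32.2% in either direction). The median over the 9 genes was -0.16, and over all genes 0.02.

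EGLN3 was the gene with the largest fitted change. It had 922, 609 and 938 counts in the vehicle-treated libraries (23.9, 14.2 and 18.2 CPM) and 5, 28 and 3 counts in the DOX-treated ones (0.0907, 0.398 and 0.0676 CPM). The groups stood far apart, and replicate 2 of the DOX-treated libraries held most of the remaining reads. Vehicle-treated cells had 87.6 times the level of DOX-treated cells (95% counting interval 63.1 to 125). The fitted log2 change was -6.48 (SE 0.28, adjusted p = 3.56e-14, edgeR), or -7.81 without DOX-treated replicate 2. EGLN3 passed the filter on low counts through the vehicle-treated group, so the p-value adds little to these counts. EGLN1 was at 13.5, 11.2 and 11.7 CPM with vehicle and at 5.84, 7.31 and 5.14 CPM with DOX, a log2 change of -0.99 (SE 0.12, adjusted p = 2.55e-07, edgeR). EGLN2, in contrast, overlapped between the groups, with 4.88, 4.20 and 5.03 CPM with vehicle and 5.17, 4.42 and 6.24 CPM with DOX (log2 fold change 0.15, adjusted p = 0.41, edgeR). It passed at 0.32 (adjusted p = 0.0777) when libraries were scaled by size alone.

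HIF3A had 2.49, 3.20 and 3.70 CPM with vehicle and 0.508, 0.938 and 0.766 CPM with DOX, a log2 change of -2.09 (SE 0.24, adjusted p = 2.28e-07, edgeR). PECAM1 fell too, by 0.43 on the log2 scale, but did not pass when libraries were scaled by size alone. The other alpha subunits changed little. HIF1A was at 495, 503 and 508 CPM with vehicle and at 473, 452 and 436 CPM with DOX. Its log2 fold change of -0.16 passed the test (adjusted p = 0.00196, edgeR) but was 0.01 with an adjusted p of 0.837 when libraries were scaled by size alone. EPAS1 was at 556, 522 and 523 CPM with vehicle and at 682, 667 and 617 CPM with DOX, a log2 change of 0.29 (adjusted p = 4.02e-06, edgeR), and 0.45 under that other scaling.

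Smaller changes passed the test for 3 further genes. ARNT went from 205, 194 and 191 CPM to 165, 169 and 160 CPM (log2 fold change -0.27, adjusted p = 1.59e-05, edgeR). VHL went from 113, 116 and 116 CPM to 139, 139 and 127 CPM (0.22, adjusted p = 0.000235). HIF1AN, which limits the activity of alpha subunits, went from 61.8, 58.1 and 60.7 CPM to 79.8, 79.8 and 82.8 CPM (0.42, adjusted p = 6.11e-07). The vehicle- and DOX-treated libraries of these genes did not overlap, as was true of 61.5% of all genes tested here. ARNT2 had at most 2 counts in any of the 6 libraries and was not tested. The DOX-treated libraries of this line also had the highest mitochondrial share of counts of all groups, and leaving the mitochondrial genes out of the scaling gave log2 fold changes of -6.47 for EGLN3 and -2.08 for HIF3A.

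Of the 10 HIF targets, all 10 fell on MUC1 silencing, with a median log2 fold change of -2.16. Over all 19220 genes tested 30.7% rose and 31.6% fell, and list counts near these shares say little about a list. CA9 had 49.8, 33.6 and 37.3 CPM with vehicle and 0.0363, 0.284 and 0.045 CPM with DOX (log2 fold change -8.15), and as for EGLN3 the DOX-treated replicate 2 was the highest of its group. NDRG1 fell by 4.19, BNIP3, a mitophagy receptor, by 3.48 and PFKFB4 by 2.71. Of the VHL ligase subunits, 3 of 4 fell, ELOB by 0.41, ELOC by 0.41 and RBX1 by 0.20. CITED2 fell by 1.03 and EP300 rose by 0.36. Among the stability genes 1 rose and 6 fell, with SIAH2 at -1.59, the scaffold RACK1 at -0.77, the chaperone gene HSP90AB1 at -0.72 and SIAH1 at -0.51, while HSP90AA1, also among the 6 and named for this dependence after its value was seen, was at 0.02 with library size alone as scaling. Of the other bHLH-PAS genes 4 rose and 1 fell, with the clock factor BMAL1 at 1.07, NPAS2 at -0.70, AHR at 0.66 and SIM1 at 0.54. Of the other dioxygenases ADO rose by 0.27 and KDM6A fell by 0.17. With libraries scaled by size alone, 1 ligase subunit was higher and 2 lower, and 2 genes of the coactivator list were higher and 1 lower. In that scaling 1 stability gene was higher and 4 lower, and 5 bHLH-PAS genes were higher and 1 lower. There 2 dioxygenases were higher and 0 lower, so that the fall of KDM6A no longer passed.

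GO-203 inhibits the MUC1-C protein, and its comparison uses the 3D cells that also served in the 3D vs. 2D comparison, so results of the pair share those libraries. The changes were small. EPAS1 and EGLN3 mRNA was lower, and HIF3A and ARNT mRNA higher, in GO-203-treated than in control 3D cells. Of 9 genes tested, 2 rose and 2 fell at an adjusted p below 0.1, against 11.1% and 12.9% of 18488 genes (24.1% in either direction). With a fold change above 1.5 edgeR's test called 0, against 3.61% of all genes in the higher and 2.02% in the lower direction (5.63% in all), and DESeq2 also called 0, while 2 were higher and 3 lower at an unadjusted p under 0.05. The count was 1 without 3D replicate 3 or without GO-203 replicate 2.

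EPAS1 was at 247, 249 and 242 CPM in 3D cells and at 165, 167 and 170 CPM with GO-203, a log2 change of -0.54 (SE 0.05, adjusted p = 1.88e-07, edgeR). EGLN3 was at 8.78, 9.35 and 8.44 CPM in 3D cells and at 5.52, 6.31 and 5.96 CPM with GO-203 (-0.56, SE 0.12, adjusted p = 0.00129). Neither gene had overlapping groups, but nor did 34.0% of all genes tested with GO-203, VHL and EGLN1 among them, which did not pass. HIF3A was at 13.4, 15.4 and 12.9 CPM in 3D cells and 17.5, 19.6 and 18.0 CPM with GO-203 (0.42, adjusted p = 0.00184), and its adjusted p was 0.134 when all 21 libraries shared an estimate of the spread. ARNT was at 127, 124 and 131 CPM against 146, 138 and 147 CPM with GO-203 (0.19, adjusted p = 0.0195), and was at 0.17 with an adjusted p of 0.106 without GO-203 replicate 1.

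The genes that did not pass with GO-203 were HIF1A, VHL, EGLN1, EGLN2 and HIF1AN. HIF1A had 318 to 334 CPM in 3D cells and 328 to 379 CPM with GO-203 (log2 fold change 0.11, adjusted p = 0.207, edgeR), and passed without GO-203 replicate 2 (0.15, adjusted p = 0.0791). Over all fits without 1 library its log2 fold change ran from 0.05 to 0.15. EGLN1 had 31.2 to 33.6 CPM in 3D cells and 27.0 to 29.8 CPM with GO-203 (-0.15, adjusted p = 0.112), and passed narrowly without GO-203 replicate 3 (-0.18, adjusted p = 0.0987), with RLE factors (-0.16, adjusted p = 0.0994) and with at least 10 counts in every library (-0.15, adjusted p = 0.0984). VHL, EGLN2 and HIF1AN lay between -0.05 and 0.04 on the log2 scale, and for EGLN2 the standard error was 0.19 at 2.41 to 3.61 CPM. For the lists that follow, the shares over all genes tested were 11.1% higher and 12.9% lower. Of the 10 HIF targets 9 fell, with CA9 at -0.66, NDRG1 at -0.64, ANKRD37 at -0.64 and PFKFB4 at -0.45, a list median of -0.40. Of the stability genes 2 rose and 5 fell, with the chaperone gene HSP90AA1 at -0.46, SIAH1 at 0.34, AJUBA at 0.25 and LIMD1 at -0.23. Of the other lists, ELOB (0.28), CITED2 (0.19), AHR (0.53), SIM1 (0.23), P4HTM (0.36) and KDM6A (0.15) rose and BMAL2 fell by 0.56, and 1 of these dioxygenases passed with RLE factors or with mitochondrial genes left out of the scaling.

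**Figure D3:**
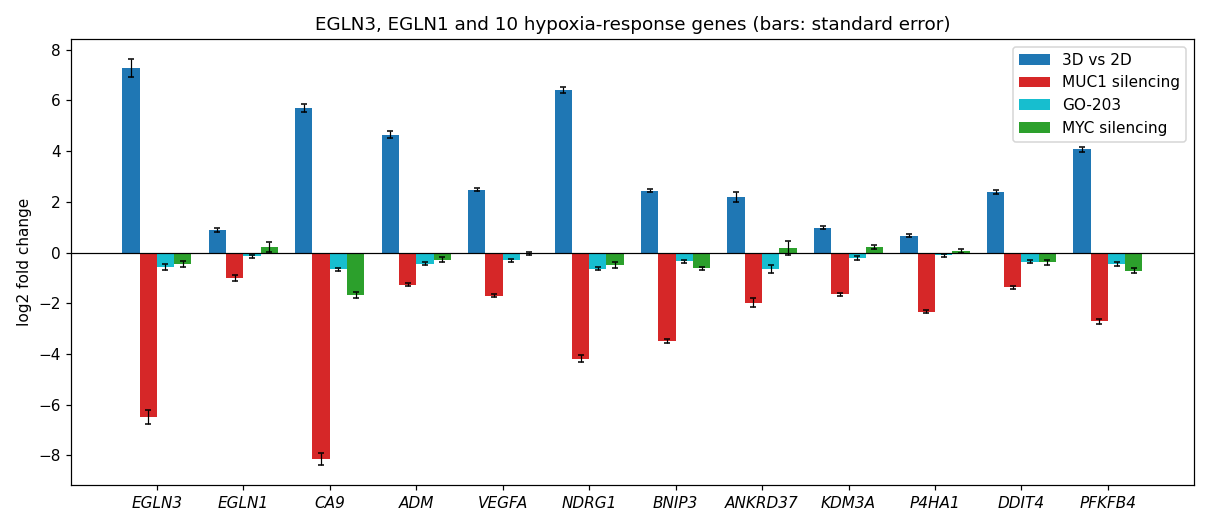
Fitted log2 fold change of EGLN3, EGLN1 and 10 known HIF targets in the 4 comparisons, with bars from 0 and whiskers for the standard error. All 10 targets lie above 0 in 3D vs. 2D cells and below 0 on MUC1 silencing, where CA9 reaches -8.15 and EGLN3 -6.48, and the bars for GO-203 and MYC silencing are shorter than those for MUC1 silencing.

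MYC silencing asked the same of the MYC transcription factor. EPAS1, HIF3A and HIF1AN mRNA was higher in DOX-treated than in vehicle-treated tet-MYCshRNA mammospheres, smaller increases were seen for ARNT, EGLN2 and HIF1A, and EGLN3 was lower. Of 9 genes tested, 6 rose and 1 fell at an adjusted p below 0.1, against 30.3% and 28.1% of 19951 genes (58.5% in either direction). With a fold change above 1.5, edgeR and DESeq2 both called 3 higher and 0 lower, against 20.6% and 17.1% of all genes (37.7% in either direction). Their median was 0.29, and that of all genes 0.01.

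EPAS1 was at 266, 265 and 254 CPM with vehicle and 445, 505 and 539 CPM with DOX, a log2 change of 0.91 (SE 0.06, adjusted p = 1.33e-06, edgeR). HIF3A had 0.771, 0.770 and 0.807 CPM with vehicle and 4.85, 6.47 and 5.88 CPM with DOX. The DOX-treated libraries had 7.40 times the vehicle level by scaled counts (95% counting interval 6.32 to 8.71), and the fitted log2 change was 2.86 (SE 0.17, adjusted p = 3.72e-07, edgeR). HIF1AN was at 46.7, 45.8 and 44.4 CPM with vehicle and 70.8, 71.0 and 73.4 CPM with DOX (0.64, SE 0.06, adjusted p = 1.34e-05). In these genes the groups did not overlap, which held for 59.2% of all genes tested in this comparison. PECAM1 rose here as well, by 0.45 on the log2 scale, with 0 counts of CDH5 in every library of the line.

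HIF1A was at 370, 369 and 377 CPM with vehicle and 412, 403 and 421 CPM with DOX. The log2 fold change of 0.13 passed with an adjusted p of 0.0739 in edgeR's test, but did not with DESeq2 (0.261), RLE factors (0.107), scaling by library size alone (0.165), no filter on low counts (0.351) or the replicate block (0.183), or when DOX-treated replicate 3 (adjusted p = 0.138) or any vehicle-treated replicate (adjusted p = 0.135 to 0.316) was left out. ARNT rose by 0.29 (SE 0.06, adjusted p = 0.00165), from 113, 114 and 116 CPM to 139, 139 and 147 CPM. EGLN3 was at 12.75, 12.45 and 13.9 CPM with vehicle and 7.95, 11.4 and 9.53 CPM with DOX, a log2 change of -0.45 (SE 0.13, adjusted p = 0.0157, edgeR). EGLN2 had 3.71 to 4.63 CPM with vehicle and 5.15 to 5.58 CPM with DOX (0.35, adjusted p = 0.0548), and did not pass without vehicle-treated replicate 1 (adjusted p = 0.23) or 3 (0.105) or DOX-treated replicate 2 (0.107). It did not pass with DESeq2 (0.105), without the filter on low counts (0.167) or with the replicate block (0.12) either.

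EGLN1 was at 28.9, 24.7 and 21 CPM with vehicle and at 19.8, 37.7 and 30.8 CPM with DOX. The DOX-treated libraries spread from below to above the vehicle-treated ones, and the log2 fold change of 0.23 had a standard error of 0.19 (adjusted p = 0.356, edgeR). Without DOX-treated replicate 1 it was 0.43 with an adjusted p of 0.011, and over all fits without 1 library it ran from 0.007 to 0.43. VHL overlapped between the groups, at 52.2 to 59.4 CPM with vehicle and 58.5 to 61.1 CPM with DOX (0.07, adjusted p = 0.466). ARNT2 was listed in no library of this line and was read as 0 counts.

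Of the 10 HIF targets, 1 rose and 6 fell on MYC silencing, with a median log2 fold change of -0.33. Over all 19951 genes tested 30.3% rose and 28.1% fell, and list counts near these shares say little about a list. CA9 fell by 1.68, PFKFB4 by 0.71, BNIP3 by 0.62 and NDRG1 by 0.50, and the gene that rose was the histone demethylase KDM3A at 0.21, named here after its value was seen. Of the VHL ligase subunits ELOB rose by 0.50, ELOC fell by 0.62 and RBX1 fell by 0.22. All 3 genes of the coactivator list rose, the coactivators EP300 by 0.53 and CREBBP by 0.37 and their competitor CITED2 by 0.88. Of the stability genes 3 rose and 5 fell, with AJUBA at -2.40, WTIP at 1.63, OS9 at 1.46 and HSP90AB1 at -1.01. Of the other bHLH-PAS genes 5 rose and 2 fell, with AHR at 1.46, BMAL2 at -1.09, AHRR at 0.87 and NPAS2 at 0.83. P4HTM, KDM5A and KDM6A rose by 1.04, 0.57 and 0.43 and ADO fell by 0.38. With libraries scaled by size alone, 1 ligase subunit was higher and 3 lower.

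Whether the response to DOX differed between the lines was tested as an interaction over their 12 libraries, which share no sample. Here a negative value means that the log2 fold change with DOX was more negative, or less positive, in the tet-MUC1shRNA line. It does not say which response was larger. Of 9 genes tested, 0 responded more positively and 7 more negatively in the tet-MUC1shRNA line at an adjusted p below 0.1, against 26.0% and 26.9% of 21585 genes (52.9% in either direction). With the difference also above 1.5-fold, 4 were called in the lower direction and 0 in the higher by edgeR and by DESeq2, against 20.3% and 19.1% of all genes (39.4% in either direction). EGLN3 differed by -6.05 on the log2 scale (SE 0.39, adjusted p = 6.26e-10, edgeR), or -7.40 without replicate 2 of the DOX-treated tet-MUC1shRNA libraries, HIF3A by -4.96 (SE 0.30, adjusted p = 3.33e-10), EGLN1 by -1.23 (SE 0.25, adjusted p = 0.000535) and EPAS1 by -0.63 (SE 0.08, adjusted p = 2.68e-06). EPAS1 passed but lay under 1.5-fold at -0.43 with libraries scaled by size alone, at -0.57 without the filter on low counts and at -0.56 with at least 10 counts in every library. HIF3A fell in the first line and rose in the other, and EPAS1 rose in both, less in the first. ARNT, HIF1A and HIF1AN differed by -0.57, -0.30 and -0.24 (adjusted p = 1.81e-06, 0.000833 and 0.0195, edgeR). When libraries were scaled by size alone the last 2 were at -0.10 and -0.03 and did not pass (adjusted p = 0.267 and 0.796), and HIF1AN did not pass without the filter on low counts either (-0.17, adjusted p = 0.317). VHL and EGLN2 did not pass, at 0.14 (adjusted p = 0.187) and -0.21 (adjusted p = 0.435), but VHL passed in the positive direction under 3 alternatives. It was at 0.34 (adjusted p = 0.00258) with libraries scaled by size alone, at 0.21 (adjusted p = 0.0272) with at least 10 counts in every library, and at 0.17 (adjusted p = 0.081) without replicate 1 of the DOX-treated tet-MYCshRNA libraries. The lines also differed in passage, which cannot be told apart from the shRNA. Among the HIF targets, all 10 responded more negatively in the tet-MUC1shRNA line (median -2.09), with CA9 at -6.50, NDRG1 at -3.71, BNIP3 at -2.88 and the collagen prolyl hydroxylase subunit P4HA1 at -2.40. Among the stability genes 3 responded more positively and 6 more negatively, led by AJUBA at 2.62 and OS9 at -1.67. In the coactivator list CITED2 and CREBBP differed by -1.92 and -0.33. Of the other bHLH-PAS genes 3 were more positive and 4 more negative, led by BMAL2 at 1.56 and NPAS2 at -1.54, and all 4 dioxygenases differed, ADO by 0.64, P4HTM by -1.19, KDM6A by -0.62 and KDM5A by -0.56. Of the 4 ligase subunits ELOB differed by -0.93 and ELOC by 0.20, the latter not passing when mitochondrial genes were left out of the scaling. With libraries scaled by size alone, the stability genes were 3 more positive and 5 more negative, the bHLH-PAS genes 3 and 2, and the ligase subunits 3 and 1. In the coactivator list 1 gene was more negative.

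The balance between the alpha subunits was compared as a ratio of transcripts. The ratio of EPAS1 to HIF1A, both in CPM per kilobase of exon, was 0.0339 ± 0.00126 (SD, n = 3) in 2D cells and 0.533 ± 0.0193 in 3D cells. GO-203-treated 3D cells had 0.341 ± 0.0220. In the tet-MUC1shRNA line the ratio was 0.752 ± 0.0367 with vehicle and 1.02 ± 0.0216 with DOX, and in the tet-MYCshRNA line 0.497 ± 0.0182 with vehicle and 0.852 ± 0.0766 with DOX. Thus HIF1A was the more abundant transcript per kilobase in 2D cells by a wide margin, and EPAS1 reached its level in DOX-treated tet-MUC1shRNA mammospheres. In each of the 4 comparisons the groups did not overlap, and the two-sided exact permutation p was 0.1 throughout, also after Benjamini-Hochberg adjustment over the 4, the smallest that 3 against 3 libraries allow. The difference in log2 ratio was 3.97 for 3D vs. 2D cells, -0.65 for GO-203, 0.44 for MUC1 silencing and 0.77 for MYC silencing. The ratio of ARNT to the summed alpha subunits, again per kilobase, stayed between 0.143 and 0.241 in the group means, so the alpha transcripts together exceeded ARNT in every group. Since exon lengths count every annotated exon of a gene, a ratio between genes also carries any difference in the isoforms expressed.

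**Figure D4:**
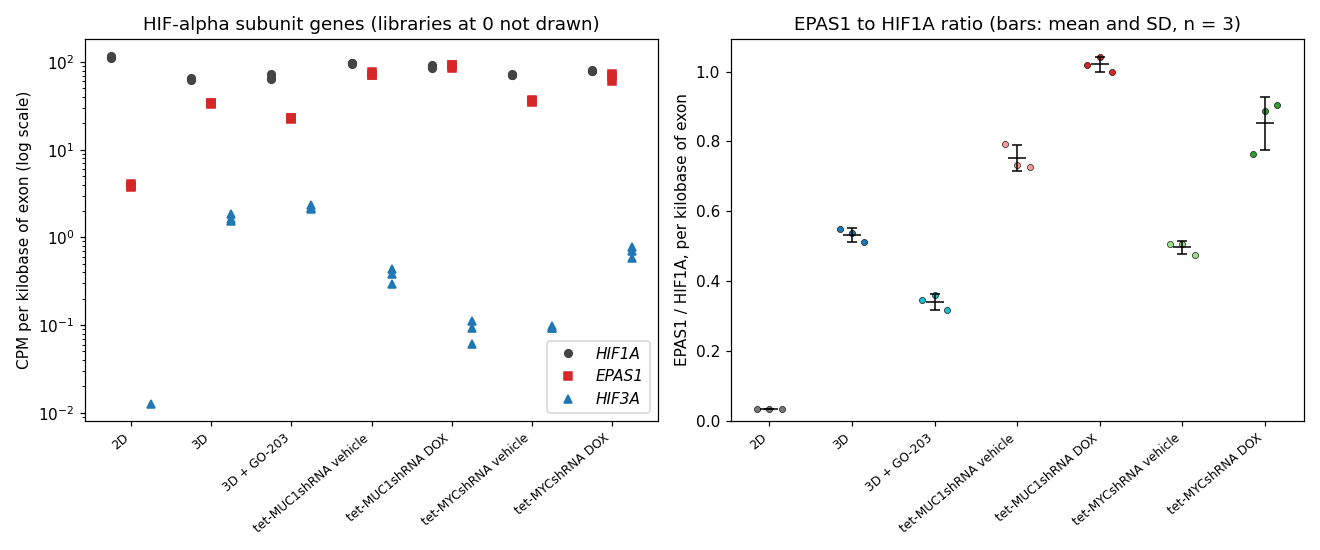
Left, HIF1A, EPAS1 and HIF3A in CPM per kilobase of exon on a log axis, 1 point per library, with libraries at 0 not drawn; right, the ratio of EPAS1 to HIF1A per kilobase with bars for the mean and SD (n = 3). HIF1A stays between 61.7 and 117 in every library, EPAS1 runs from 3.73 to 93.6, and the ratio lies near 0.03 in 2D cells and near 1 in DOX-treated tet-MUC1shRNA mammospheres.

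Over all 7 groups, EPAS1 was highest in DOX-treated tet-MUC1shRNA mammospheres at 656 ± 34.2 CPM (SD, n = 3) and lowest in 2D cells at 28.1 ± 1.08 CPM. Between these extremes came vehicle-treated tet-MUC1shRNA and DOX-treated tet-MYCshRNA mammospheres, whose values overlapped, then vehicle-treated tet-MYCshRNA mammospheres, 3D cells and GO-203-treated 3D cells. HIF1A ran in a different order, from 586 ± 14.1 CPM in 2D cells down to 327 ± 8.38 CPM in 3D cells, where vehicle-treated tet-MYCshRNA mammospheres, GO-203-treated and control 3D cells overlapped with their neighbours. HIF3A was highest in GO-203-treated 3D cells at 18.4 ± 1.13 CPM and next in 3D cells at 13.9 ± 1.32 CPM, and its vehicle-treated tet-MYCshRNA and DOX-treated tet-MUC1shRNA values, near 0.7 to 0.8 CPM, overlapped. EGLN3 was highest in vehicle-treated tet-MUC1shRNA mammospheres at 18.8 ± 4.88 CPM, and its lowest groups, DOX-treated tet-MUC1shRNA mammospheres at 0.185 ± 0.185 CPM and 2D cells at 0.053 ± 0.0768 CPM, overlapped.

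EGLN1 followed another order. It was highest in 3D cells at 32.2 ± 1.25 CPM, with DOX-treated tet-MYCshRNA, GO-203-treated 3D and vehicle-treated tet-MYCshRNA groups overlapping in turn, then 18.2 ± 2.18 CPM in 2D cells. Both groups of the tet-MUC1shRNA line lay lowest, at 12.1 ± 1.23 and 6.09 ± 1.11 CPM. VHL and ARNT were highest in that same line, with VHL at 135 ± 6.79 and 115 ± 1.68 CPM with and without DOX and ARNT at 165 ± 4.70 and 197 ± 7.47 CPM. HIF1AN was highest in the DOX-treated groups, at 80.8 ± 1.72 CPM in the tet-MUC1shRNA line and 71.8 ± 1.46 CPM in the tet-MYCshRNA line. EGLN2 ranged only from 3.05 ± 0.33 CPM in 3D cells to 5.43 ± 0.24 CPM in DOX-treated tet-MYCshRNA mammospheres, and most neighbouring groups overlapped. ARNT2 had 0 counts in 14 of the 21 libraries, which allows a level of up to 0.03 to 0.0778 CPM by a floor of 3 counts, counting error only.

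The genes whose log2 CPM was most like that of a member over the 21 libraries were listed among 12306 genes with a mean count of at least 100. The libraries share groups, so these values describe the pattern over 7 conditions and carry no test. For EPAS1 they were RRAGD (Pearson's r = 0.987), TPCN1 (0.982) and NAV2 (0.982). For EGLN3 they were the HIF target NDRG1 (0.975), FAM13A (0.961) and NIM1K (0.958), and for HIF1A they were NPNT (0.963), ENTPD7 (0.959) and RHOBTB1 (0.957). Among pairs of the 10 genes over the same libraries, the largest values of either sign were -0.849 for EPAS1 with ARNT2, which had 0 counts in 14 of these libraries, 0.808 for ARNT with VHL, -0.779 for HIF1A with HIF3A and -0.77 for VHL with EGLN1.

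The genomic setting of the genes limits some counts. In GENCODE release 44 on GRCh38, EGLN1 lies on chromosome 1 from 231363751 to 231422287 and shares 55.8% of its exon bases, on the same strand, with the gene ENSG00000287856, which was counted at 4 reads or fewer in every library. Adding that gene's counts to EGLN1 changed no count of called genes, but so few reads could hardly change one. Reads left out because they fit both genes would be in neither count. Whether EGLN1 lost reads in this way was therefore not tested. EGLN2, on chromosome 19 from 40798996 to 40808434, shares 30.6% of its exon bases with the read-through gene RAB4B-EGLN2. That gene is not among those listed with counts, and whether EGLN2 lost reads to the overlap was not tested. EGLN3 (chromosome 14, 33924227 to 34462774) and EPAS1 (chromosome 2, 46293667 to 46386697) share none with another annotated gene. VHL (chromosome 3, 10141778 to 10153667) shares 23.5% of its exon bases with a gene on the opposite strand. The library kit keeps strand, but whether the counting used it is not given in the sources used here, so reads of such opposite-strand pairs cannot be told apart.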

How the data were processed

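RNA of 21 BT-549 libraries was prepared with the TruSeq Stranded mRNA kit and sequenced in pairs. Per the study's methods and the submitters' processing notes, the authors aligned reads to GRCh38 with STAR (2.7.3a in the notes) and deposited raw featureCounts counts per Ensembl gene, in a single table. Annotation release, strand setting and the treatment of multi-mapping reads are not given in the sources used here. Blank cells (6498 genes in the 2D and 3D libraries, 7587 with GO-203, 4952 and 5761 in the tet-MUC1shRNA and tet-MYCshRNA lines) were read as 0 counts; of the 10 genes, this touched ARNT2 in the tet-MYCshRNA line. Columns not used numbered 0.

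Groups came from the sample titles. In R 4.3.3 with edgeR 4.0.16, each pair of groups was fitted alone on genes kept by filterByExpr, with TMM factors, the quasi-likelihood F-test and Benjamini-Hochberg adjustment over all genes tested. A gene passed at an adjusted p below 0.1, and was called when its fold change was also above 1.5. Standard errors are the log2 fold change divided by the root of F. CPM values were scaled by TMM factors over the 21 libraries, and CPM per kilobase used the summed exon length in GENCODE. Counting intervals of 95% cover counting error only. The script was tested on simulated data first.

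All 10 genes were named whatever their values. Of each pathway list, at most 4 genes with the largest change among those that passed were named, with HSP90AA1 on MUC1 silencing and KDM3A on MYC silencing added after their values were seen. For HIF1A, EPAS1 and EGLN3, the 3 genes with the highest correlation were named. Members and lists were chosen with earlier results of these data known. Replicates of the same number did not deviate together (mean correlations of deviations from -0.251 to 0.143), so no block was used. Alternatives were DESeq2 1.42.0, other scalings, filters, thresholds and sets of libraries, a replicate block, each replicate left out, and other mammospheres in place of 3D cells. Adding the counts of ENSG00000287856 to EGLN1 was chosen after seeing the data. Libraries of 38026597 to 99751717 counts leave a floor of 3 counts at 0.03 to 0.0778 CPM where ARNT2 was at 0.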

Additional observations from a re-analysis of the deposited data

Results flagged for a closer look

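The response to DOX differed between the tet-MUC1shRNA and tet-MYCshRNA lines for 7 of the 9 genes tested in edgeR's interaction test at an adjusted p below 0.1, against 52.9% of 21585 genes, and each of the 7 is given here as the log2 fold change in the tet-MUC1shRNA line minus that in the tet-MYCshRNA line. The direction of each gene in the lines themselves stands beside it. HIF3A differed by -4.96 (-2.09 on MUC1 silencing and 2.86 on MYC silencing), in opposite directions that both passed their own tests. EGLN3 differed by -6.05 and fell in both lines (-6.48 and -0.45). EGLN1 differed by -1.23 (-0.99 and 0.23), of which the second did not pass. EPAS1 differed by -0.63 and rose in both (0.29 and 0.91).

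ARNT differed by -0.57, falling by 0.27 on MUC1 silencing and rising by 0.29 on MYC silencing. HIF1A differed by -0.30 (-0.16 and 0.13) and HIF1AN by -0.24 (0.42 and 0.64, both higher). The HIF1A and HIF1AN differences did not pass when libraries were scaled by size alone, at -0.10 and -0.03, a scaling that moved the median difference of all genes by 0.20, and HIF1AN did not pass without the filter on low counts either (-0.17, adjusted p = 0.317 in edgeR's test). The shRNA, the passage and the line cannot be told apart in any of these differences. Single outlying libraries were not tested, since each group held only 3 libraries.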

How the results depend on the processing

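Over all alternatives, 11 of 98 counts of the 10 genes called and 9 of 98 counts of all genes called moved by more than 1.5 times. With a log2 fold change above 1.5 required, genes called were 3107 in 3D vs. 2D cells, 1695 on MUC1 silencing, 140 with GO-203, 2085 on MYC silencing and 3487 in the interaction, against 7489, 6185, 1041, 7514 and 8501. With the adjusted p alone, 12223, 11962, 4452 and 11665 passed in the 4 comparisons. Of the 10 genes, this last setting gave 8 on MUC1 silencing, 4 with GO-203, 7 on MYC silencing and 7 in the interaction, against 3, 0, 3 and 4, and the log2 threshold gave 1 on MYC silencing and 2 in the interaction. At least 10 counts in every library left 3 in 3D vs. 2D cells and 2 in the interaction, where fewer genes were tested, and a fit of all 21 libraries gave 1 with GO-203. Leaving out 1 library gave 6 to 6, 3 to 3, 0 to 1, 3 to 4 and 4 to 5 of these genes, and 7454 to 7953, 6014 to 6326, 852 to 1085, 6982 to 7735 and 8205 to 8874 genes in all.

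Of the log2 fold changes of the 10 genes under alternatives, 840 kept direction and side of the threshold, 27 no longer passed the adjusted p, 10 newly passed it, and 20 reversed. Scaling by library size alone reversed ARNT in 3D vs. 2D cells (-0.022) and HIF1A on MUC1 silencing (0.010). That scaling moved the median of all genes by 0.166 on MUC1 silencing and 0.204 in the interaction, and the share of called genes that were higher from 54.6% to 69.9% and from 48.5% to 61.7%. With tet-MUC1shRNA vehicle mammospheres in place of 3D cells, EGLN1 (-0.55), EGLN2 (0.24) and HIF1AN (0.063) reversed, and with tet-MYCshRNA vehicle mammospheres ARNT (-0.15), VHL (-0.075) and EGLN2 (0.062). HIF1AN with GO-203, at 0.00, reversed with DESeq2 (-0.011), RLE factors (-0.0055), mtDNA genes left out (-0.0019), no filter (-0.0095), all 21 libraries (-0.031) and 3 of 6 fits without 1 library, which ran from -0.038 to 0.028. EGLN2 reversed in 3 such fits with GO-203 (range -0.072 to 0.21) and 1 on MUC1 silencing (-0.0057 to 0.28). The cause of these reversals was not tested.

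The replicate block, for numbers that do not pair the samples, gave 6, 3, 0, 3 and 4 of the 10 genes and 7314, 6116, 1125, 7120 and 8077 genes in all, and HIF1A (0.13, adjusted p = 0.183) and EGLN2 (0.36, adjusted p = 0.12) no longer passed on MYC silencing in edgeR's test. HIF3A, EGLN3 and NPAS2 in 2D cells, EGLN3 in DOX-treated tet-MUC1shRNA mammospheres and ARNT2 everywhere rest on few reads. The size of their fold changes is therefore less certain than the direction.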
